A study of Canis lupus familiaris with 29 samples.

Results

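The comparison described here set MDCK cells given hepatocyte growth factor (HGF) together with a MEK inhibitor against untreated MDCK cells, all in 3D collagen culture. It addresses how much of the HGF response is left, or is overshot, while MEK is inhibited, and which of the changes PD-98059 and U0126 share. MDCK is an established line of dog kidney epithelial cells, here the type II strain. The arrays were chosen by their labels and not by any measured value. They were 3 arrays of cells given HGF and PD-98059, 3 of cells given HGF and U0126, and 4 of untreated control cells, 10 of the 29 arrays in the series. The 4 arrays of 3D cells given HGF alone served to say what HGF does without an inhibitor. Each inhibitor had equal weight in the mean of both. No arrays of 3D cells with an inhibitor and without HGF were analysed here, so an effect of a compound on its own and its effect on the HGF response cannot be told apart. The sources used here give neither doses nor treatment times.

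HGF is the ligand of MET, a receptor tyrosine kinase of epithelial cells, and MDCK cells in collagen form hollow cysts that send out tubules when HGF is added. Activated MET works through several pathways, among them RAS, RAF, MEK and ERK, and PI3K. MEK is the kinase that phosphorylates and activates ERK, which in turn drives transcription of immediate early genes such as FOS and EGR1 and of DUSP phosphatases that switch ERK off again. PD-98059 is a flavone and U0126 a butadiene with nitrile and aminophenylthio groups, so they differ in chemical structure, and both inhibit MEK without competing with ATP.

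The arrays were Affymetrix canine arrays for messenger RNA, and a level is a normalized log2 value of a probe set. The log base is not stated in the sources used here and was taken as 2 from the range of the values. Differences are between group means on that scale, ± the standard error from limma. Rose and fell are used only of genes under an adjusted p of 0.05 over all 16571 tested probe sets. A change is called shared where it passed against control for both inhibitors in the same direction. Means under log2 5 are called dim, and folds that involve one rest on background. The few arrays per group limit the precision, and nothing says that arrays of a group came from separate cultures, so the spread that p-values are measured against may be technical. In bulk RNA, fewer cells of a kind and less RNA per cell cannot be told apart.

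Arrays of 1 group correlated at 0.989 or more for PD-98059, 0.987 or more for U0126, 0.964 or more for HGF alone and 0.993 or more for control. PD-98059 replicate 1 correlated with a U0126 array at 0.990, above its lowest correlation within its own group. The same held for U0126 replicates 1 and 3, at 0.989 and 0.990 with a PD-98059 array. Some genes split these arrays from the other inhibitor arrays across both compounds. MAL2 was at 9.87, 10.39 and 10.10 in them, against 6.96 and 7.08 in PD-98059 replicates 2 and 3 and 7.34 in U0126 replicate 2. DKC1 split the same way, as did TIPARP among the genes below, and the part of this split in the results was not tested. The HGF arrays were the most spread, and without HGF replicates 1 and 4 the shared changes numbered 2212 higher and 2428 lower, against 1857 and 2102 with all arrays. An RNA-quality index, the mean 3′ minus 5′ or middle difference of control probe sets, averaged 1.63 ± 0.09 (SD, n = 6) in the inhibitor arrays, against 1.93 ± 0.24 (SD, n = 4) in control, with exact two-sided permutation p = 0.0143. With HGF alone the index averaged 1.68 ± 0.58 (SD, n = 4), highest in replicate 1 (2.46) and lowest in replicate 4 (1.09). Control replicates 1 and 3 had 2.15 and 2.12, and control replicates 2 and 4 had 1.74 and 1.71. Some genes split control the same way, such as TK1 at 5.36 and 5.47 against 6.38 and 6.26. With that index as a covariate the shared changes numbered 1903 higher and 2241 lower. The epithelial markers EPCAM, KRT8 and KRT18 were bright in all groups, while CDH1, which encodes E-cadherin, and ST14 never reached log2 5, and of the tubule markers CDH16 was bright and the other 4 dim. All 8 fibroblast and 5 endothelial markers and 6 of 7 leukocyte markers, PTPRC among them, stayed below log2 5. A dim probe set may also read its gene poorly, since that of the beta-actin gene ACTB reached at most 2.23 in any array. The dim levels of CDH1 and of the other markers therefore do not show that these genes are silent. The summed level of the epithelial markers ranged from 70.97 to 71.99 under PD-98059 and from 69.43 to 70.79 under U0126, against 72.01 to 72.82 in control. The part of this shift and of the index in the results below was not tested.

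Under both inhibitors together the cells given HGF still differed widely from untreated cells. The inhibitor mean was higher than control for 3474 probe sets (21.0% of those tested) and lower for 3521 (21.2%). By inhibitor, 3587 probe sets rose (21.6%) and 2847 fell (17.2%) with PD-98059, and 2351 rose (14.2%) and 3247 fell (19.6%) with U0126. With HGF alone 4879 rose (29.4%) and 5404 fell (32.6%), a split that turned to 5875 and 4799 after median centring of each array and to 5746 and 5266 after a further quantile normalization. The comparisons of PD-98059, U0126 and HGF share the 4 control arrays, and a deviation of those arrays moves all of them the same way.

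Both inhibitors shared 1857 higher probe sets (11.2%) and 2102 lower ones (12.7%). The shared set was 51.8% of the higher and 73.8% of the lower PD-98059 calls, and 79.0% of the higher and 64.7% of the lower U0126 calls. The inhibitors passed in opposite directions at 29 probe sets with PD-98059 higher and U0126 lower (0.175%) and at 13 with PD-98059 lower and U0126 higher (0.0785%). Of the shared changes, 277 higher (1.67%) and 320 lower (1.93%) were at least 2-fold for each compound.

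Most of what both inhibitors shared ran in the direction of HGF alone. The HGF response counted as left where HGF and both inhibitor groups passed the same way, which held for 1495 higher (9.02%) and 1791 lower (10.8%) probe sets, or 30.6% and 33.1% of the HGF calls. The size often differed from that with HGF alone. Over all tested probe sets the inhibitor mean was above HGF alone at 4728 (28.5%) and below it at 3708 (22.4%), a split that turned to 3967 and 5135 after median centring. Among the probe sets counted as left, at 622 of the 1495 higher and 1057 of the 1791 lower ones the inhibitor mean lay on the control side of HGF alone, by a test of that difference, and at 107 and 82 it lay beyond HGF. The response counted as overshot where both inhibitor groups passed opposite to HGF, which held for 101 higher (0.609%) and 82 lower (0.495%) probe sets. Without control replicate 4 the higher ones numbered 65, and without PD-98059 replicate 1 the lower ones numbered 54. A further 261 higher and 229 lower shared changes were not called for HGF alone.

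Among the largest shared increases were enzymes that handle foreign compounds and oxidised molecules. Several are targets of the aryl hydrocarbon receptor (AhR), a transcription factor that binds small aromatic ligands and induces detoxifying enzymes. Of 5 tested genes on the AhR list, 4 rose under both inhibitors and 0 fell, against 12.2% higher and 12.8% lower of the 6862 genes tested. The list was chosen with earlier results of these data known, so this share is a description and not a test. Of its 9 genes, CYP1A1 and AHRR had no probe set that names them alone. CYP1A2 and ALDH3A1 were below the filter on low levels. The list median was 1.66 for the inhibitor mean, against 0.02 over all genes. The gene that was not shared was AHR itself, which fell by 0.69 with U0126 and changed by -0.05 with PD-98059 (adjusted p = 0.00275 for U0126 against PD-98059).

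UGT1A6, a glucuronosyltransferase, had levels of 7.38, 8.01 and 7.80 under PD-98059, 8.47, 7.84 and 7.62 under U0126, 2.98, 3.50, 2.70 and 2.91 with HGF alone and 4.70, 4.85, 3.80 and 5.21 in control. Every inhibitor array lay above every control array, and every HGF array below. UGT1A6 rose by 3.22 ± 0.25 (9.29-fold, adjusted p = 1.72e-10), from a dim control level, and fell by 1.62 with HGF alone. U0126 minus PD-98059 was 0.24, with a 95% interval of -0.40 to 0.88. In mammals the UGT1A transcripts share their last exons, so the probe set may also read other members of that family.

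CYP1B1, a cytochrome P450 that oxidises aromatic hydrocarbons and oestrogens, was bright in all groups. Its levels were 14.08, 13.98 and 14.05 under PD-98059, 14.27, 13.46 and 14.31 under U0126, 12.24, 11.12, 12.30 and 12.06 with HGF alone and 12.19, 12.46, 12.42 and 12.39 in control. The inhibitor arrays stood clear of both other groups. CYP1B1 rose by 1.66 ± 0.18 (3.16-fold, adjusted p = 7.28e-08), and U0126 minus PD-98059 was -0.02 (95% interval -0.50 to 0.45). HGF alone changed it by -0.44 (adjusted p = 0.0609), which passed as a decrease without HGF replicate 1 (-0.54) or 3 (-0.56), without U0126 replicate 2 and after a further quantile normalization (-0.46).

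TIPARP, an ADP-ribosyltransferase that represses AhR, stood at 10.96, 9.65 and 9.76 under PD-98059, 11.15, 9.95 and 10.96 under U0126, 8.85, 8.49, 9.48 and 9.82 with HGF alone and 7.36, 8.51, 7.14 and 8.13 in control. The inhibitor arrays were all above control but overlapped with HGF alone. PD-98059 replicate 1 and U0126 replicates 1 and 3 were the highest, the same split across both compounds as for MAL2. Control replicates 2 and 4 lay above 1 and 3. The part of these splits in the size of the rise was not tested. TIPARP rose by 2.62 ± 0.35 (6.14-fold, adjusted p = 1.19e-06) under the inhibitors and by 1.37 with HGF alone. NQO1, a quinone reductase, had 14.16, 14.12 and 14.16 under PD-98059, 14.03, 13.82 and 14.29 under U0126, 13.65, 13.53, 13.63 and 13.53 with HGF alone and 12.81, 12.67, 12.81 and 12.81 in control. It rose by 1.33 ± 0.09 (2.51-fold, adjusted p = 4.61e-11), in all inhibitor arrays above both other groups.

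**Figure D1:**
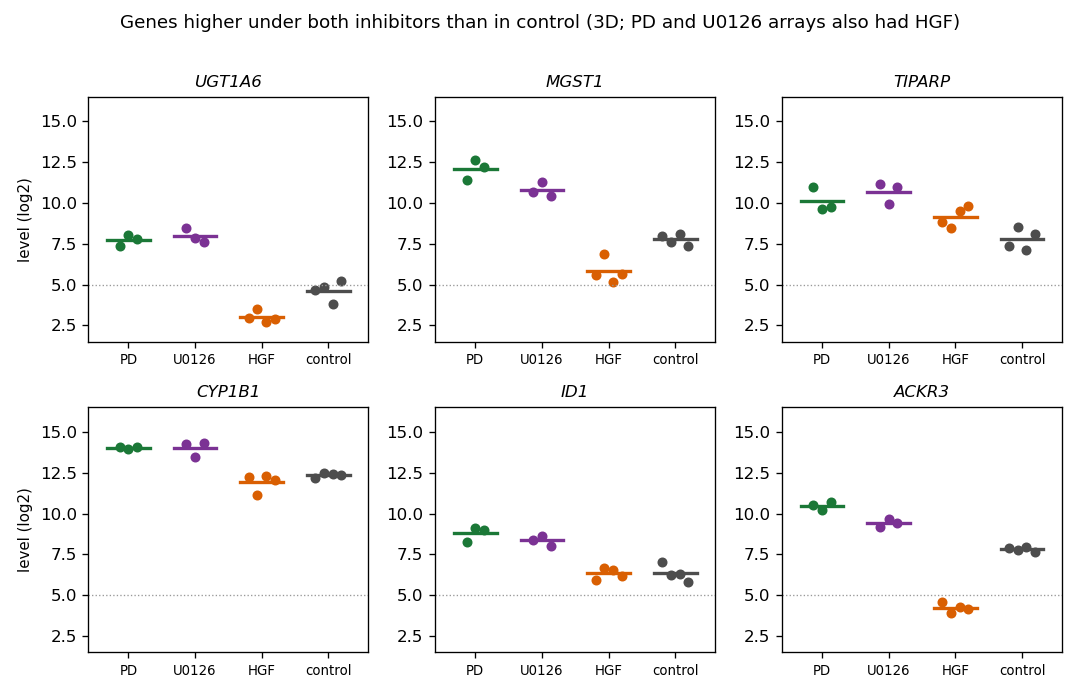
Levels of 6 genes that rose under both inhibitors, as log2 values per array. Each point is 1 array, columns are HGF with PD-98059, HGF with U0126, HGF alone and untreated control, horizontal bars are group means and the dotted line marks log2 5. The 6 inhibitor arrays of each gene lie above all 4 control arrays, whether HGF alone lies below control (UGT1A6, MGST1, ACKR3) or above it (TIPARP).

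MGST1, a glutathione transferase of membranes that was also among the largest shared increases, had levels of 11.40, 12.63 and 12.18 under PD-98059, 10.67, 11.26 and 10.41 under U0126, 5.57, 6.85, 5.15 and 5.66 with HGF alone and 7.99, 7.64, 8.13 and 7.37 in control. The groups did not overlap, with HGF alone lowest. MGST1 rose by 3.64 ± 0.26 (12.5-fold, adjusted p = 5.66e-11) and fell by 1.98 with HGF alone, so its response to HGF was overshot. The rise was smaller with U0126, by 1.29 (adjusted p = 0.0114), a difference that did not pass without PD-98059 replicate 2 or 3. PTGR1, a reductase of prostaglandins and reactive aldehydes, rose by 1.24 ± 0.11 (adjusted p = 2.02e-09) and was overshot as well, with HGF alone at -0.49 (-0.30 without HGF replicates 1 and 4). On the list of targets of NRF2, the transcription factor of the oxidative stress response, 2 of 8 tested genes rose under both inhibitors and 1 fell. Over all genes these shares were 12.2% and 12.8%. The member that fell was FTH1, the ferritin heavy chain, by 0.45 with PD-98059 and 0.31 with U0126 (a call lost without U0126 replicate 2), against 2.27 with HGF alone. Glutathione reductase (GSR) rose by 1.59 ± 0.20 with no call for HGF alone (-0.08, and -0.35, which passed, with the RNA-quality index as a covariate), and thioredoxin reductase (TXNRD1) rose by 1.58 with PD-98059, 1.25 with U0126 and 1.26 with HGF alone. The subunits of glutamate-cysteine ligase, GCLC and GCLM, did not pass for both, though GCLM did without HGF replicate 1 or 4 or U0126 replicate 2, among other settings.

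Outside these enzymes, the increases that overshot or exceeded the HGF response were of varied function. ID1, an inhibitor of basic helix-loop-helix factors and a target of BMP signalling, had 8.28, 9.13 and 8.99 under PD-98059, 8.41, 8.65 and 7.99 under U0126, 5.96, 6.68, 6.56 and 6.16 with HGF alone and 7.05, 6.26, 6.31 and 5.82 in control. HGF alone overlapped with control while all inhibitor arrays were higher. ID1 rose by 2.22 ± 0.20 (4.65-fold, adjusted p = 2.86e-09), against -0.02 with HGF alone. Its relative ID3 rose by 0.92 with PD-98059 and 0.85 with U0126, against -0.98 with HGF alone.

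ACKR3, a scavenging receptor of the chemokine CXCL12, had 10.51, 10.19 and 10.71 under PD-98059, 9.15, 9.64 and 9.43 under U0126, 4.61, 3.91, 4.26 and 4.17 with HGF alone and 7.92, 7.74, 7.94 and 7.65 in control. No groups overlapped, and HGF alone was dim. ACKR3 rose by 2.13 ± 0.17 (4.37-fold, adjusted p = 4.79e-10), less with U0126 than with PD-98059 by 1.06 (adjusted p = 0.00189). FABP1, a fatty acid binding protein of liver, gut and kidney tubule, rose by 2.86 ± 0.21 (7.29-fold, from a dim 4.77) where HGF alone took it down by 1.73. The histone deacetylase HDAC8 rose by 1.68 ± 0.24, against -1.99 with HGF alone, where its mean was dim.

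Ranked by the smallest of the changes with PD-98059, U0126 and HGF alone, 5 of the 6 largest increases left from the HGF response act in DNA synthesis or cell division, and the other one, GUCY1B1, encodes a subunit of soluble guanylate cyclase. DCK, which phosphorylates deoxycytidine for DNA synthesis, had 7.43, 7.12 and 7.22 under PD-98059, 7.07, 7.34 and 6.76 under U0126, 6.30, 7.91, 7.96 and 7.84 with HGF alone and 4.91 ± 0.35 (SD, n = 4) in control. All treated arrays stood above control, with HGF replicate 1 apart from the other HGF arrays. DCK rose by 2.25 ± 0.23 (4.75-fold from a dim level, adjusted p = 2.16e-08), against 2.59 with HGF alone, and the inhibitor mean did not pass against HGF (-0.35, adjusted p = 0.222), while without HGF replicate 1 the difference was -0.75 and passed. CDC6, which loads the replicative helicase, had 9.11, 9.09 and 9.45 under PD-98059, 8.66, 8.71 and 8.76 under U0126, 9.34, 9.96, 9.94 and 10.14 with HGF alone and 7.09, 7.14, 6.87 and 7.16 in control. The inhibitor arrays lay between control and most HGF arrays. CDC6 rose by 1.90 ± 0.16 (3.72-fold), against 2.78 with HGF alone. UBE2S, the ubiquitin chain elongating enzyme of the anaphase promoting complex, rose by 1.90 ± 0.14, against 2.94 with HGF alone. The thymidine kinase TK1 rose by 1.73 ± 0.28 and 1.63 with HGF alone, the replication helicase subunit GINS4 by 1.75 ± 0.15 and 2.15, and the nuclease DNA2 by 1.70 ± 0.21 and 1.62.

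Against 12.2% higher and 12.8% lower of all genes, 18 of 26 tested cell cycle genes rose under both inhibitors and 0 fell. Their median was 1.06. HGF alone raised 22 of them, against 30.4% of all genes (33.3% fell), and 16 increases were left, against 9.59% of all genes (11.2% for decreases). Against HGF alone the inhibitor mean was higher for 3 and lower for 7, against 30.3% and 22.9% of all genes. The cyclins CCNA2 (1.40 with PD-98059, 1.29 with U0126, 1.12 with HGF alone) and CCNE1 (1.70, 0.99 and 1.84, in that order) rose, as did the mitotic kinases AURKA and PLK1 and the clamp PCNA. BUB1B, a spindle checkpoint kinase, rose by 1.42 ± 0.28 with no call for HGF alone (0.23, adjusted p = 0.535). The cell cycle inhibitor CDKN2B, which blocks the G1 cyclin-dependent kinases, had 3.83, 3.76 and 3.77 under PD-98059, 3.42, 3.76 and 3.34 under U0126, 2.97, 3.45, 3.74 and 3.40 with HGF alone and 6.19, 6.44, 5.93 and 6.22 in control. All treated arrays lay below control, and U0126 overlapped with HGF alone. CDKN2B fell by 2.55 ± 0.15 (5.85-fold, adjusted p = 3.12e-12) to dim levels in all 3 treated groups. CDKN1A, another inhibitor of these kinases, is given with the genes back at control.

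The mitochondrial folate enzyme MTHFD2 rose by 1.43 with PD-98059 and 1.70 with U0126, against 2.43 with HGF alone, and the cytochrome c1 gene CYC1 by 1.77 and 1.48, against 1.76. Of 24 tested subunits of oxidative phosphorylation 5 rose under both inhibitors and 0 fell, against 12.2% and 12.8% of all genes. Of 19 genes of ribosome biogenesis HGF alone raised all 19, against 30.4% of all genes. Under both inhibitors 7 of these 19 rose. Their median was 0.75 with PD-98059, 0.34 with U0126 and 1.13 with HGF alone. Under the inhibitor mean 16 of the 19 were lower than with HGF alone, against 22.9% of all genes. The rRNA methyltransferase NOP2 changed by 1.24, 0.59 and 1.83 in that order.

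The largest shared decreases included secreted and immune genes that HGF alone lowered too. SELENOP, the plasma selenium carrier, had 5.06, 4.47 and 3.60 under PD-98059, 5.37, 5.20 and 4.98 under U0126, 3.45, 3.62, 3.55 and 3.04 with HGF alone and 8.55, 8.21, 8.90 and 8.05 in control. Every treated array lay below every control array, and HGF alone was the lowest group on average. It fell by 3.65 ± 0.26 (12.5-fold, adjusted p = 4.40e-11), against 5.01 with HGF alone. Its means with PD-98059 and with HGF alone were dim. C3, the central complement component, had 4.87, 4.91 and 4.54 under PD-98059, 4.40, 4.36 and 3.91 under U0126, 4.26, 3.18, 3.82 and 3.67 with HGF alone and 7.87, 7.45, 7.85 and 7.54 in control. Control was again separate from all treated groups. C3 fell by 3.18 ± 0.18 (9.05-fold, adjusted p = 1.25e-12) to dim levels in all treated groups.

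CFI, the protease that inactivates C3b, had 10.46, 10.31 and 10.49 under PD-98059, 10.77, 10.94 and 11.02 under U0126, 11.03, 10.15, 10.54 and 10.34 with HGF alone and 13.30, 13.16, 13.34 and 13.41 in control. All treated arrays lay below control, and HGF alone overlapped with both inhibitors. CFI fell by 2.64 ± 0.13 (6.24-fold, adjusted p = 1.41e-13), against 2.79 with HGF alone. SERPING1, the inhibitor of complement C1, fell by 2.45 ± 0.21. BPI, which binds bacterial lipopolysaccharide, fell by 2.79 ± 0.13 and was dim in all treated groups.

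On the inflammatory and interferon list 11 of 16 tested genes fell under both inhibitors and 1 rose, with a median of -1.06. Over all genes 12.8% fell and 12.2% rose. HGF alone lowered 15, against 33.3% of all genes, with a list median of -2.60. In either direction 12 of the 16 were left, where 9.59% of all genes were left higher and 11.2% lower. The inhibitor mean lay above HGF alone for 10, against 30.3% of all genes. CXCL10, an interferon-induced chemokine, had 3.18, 4.05 and 3.41 under PD-98059, 6.23, 6.10 and 6.01 under U0126, 3.14, 3.08, 3.10 and 3.06 with HGF alone and 8.61, 9.12, 8.89 and 9.32 in control. The U0126 arrays stood midway, while the PD-98059 arrays were dim like HGF alone. CXCL10 fell 43.2-fold with PD-98059 and 7.30-fold with U0126, and the compounds differed by 2.57 (95% interval 2.23 to 2.91, adjusted p = 1.82e-10).

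VCAM1, an adhesion molecule for leukocytes, had 3.22, 3.15 and 3.17 under PD-98059, 3.17, 3.17 and 3.18 under U0126, 3.46, 3.17, 3.16 and 3.19 with HGF alone and 5.85, 5.51, 5.92 and 4.91 in control. All treated groups were dim, so a difference between the compounds (-0.01, 95% interval -0.35 to 0.33) could not show. The interferon-induced genes ISG15 (-1.92 with PD-98059, -1.89 with U0126, -2.89 with HGF alone) and MX1 (-2.13, -1.97 and -2.63) fell in all 3 groups. PTGS2, the inducible synthase of prostaglandins, was the member that rose, by 1.80 with PD-98059 and 0.94 with U0126, against 1.55 with HGF alone.

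**Figure D2:**
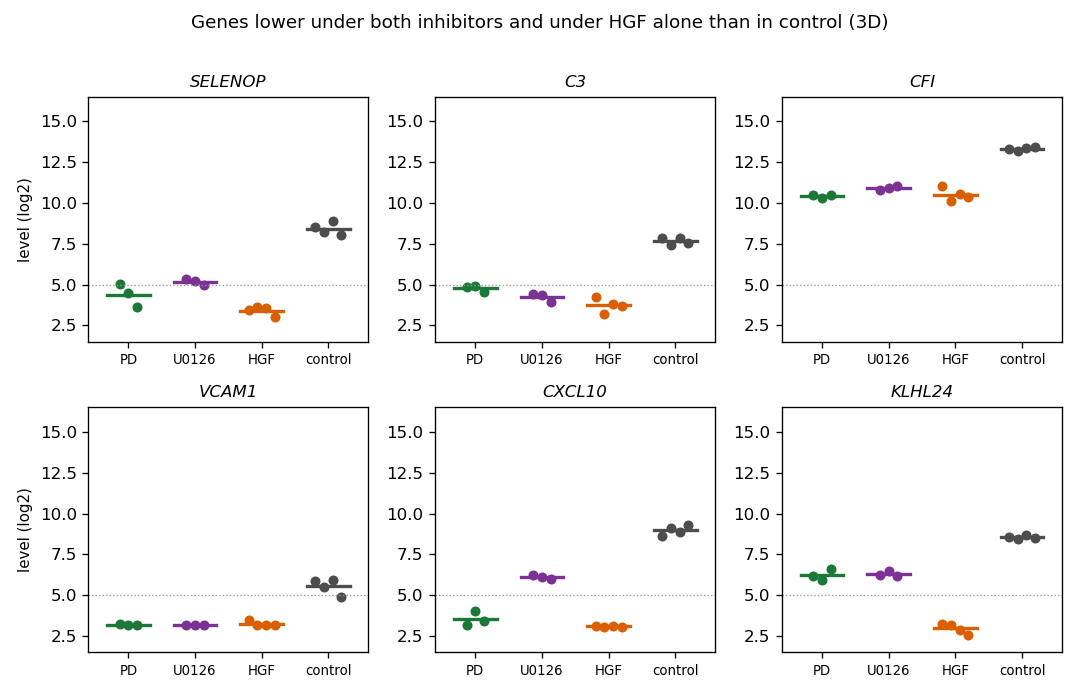
Levels of 6 genes that fell under both inhibitors, as log2 values per array. Each point is 1 array, columns are HGF with PD-98059, HGF with U0126, HGF alone and untreated control, horizontal bars are group means and the dotted line marks log2 5. The inhibitor arrays lie below all control arrays, and those of KLHL24 lie between control and HGF alone.

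KLHL24 and CREBRF fell less far than with HGF alone. KLHL24, a ubiquitin ligase adaptor for intermediate filaments, had 6.16, 5.93 and 6.58 under PD-98059, 6.25, 6.47 and 6.19 under U0126, 3.22, 3.19, 2.87 and 2.57 with HGF alone and 8.55, 8.46, 8.67 and 8.52 in control. The 3 levels were separate, with the inhibitors between. It fell by 2.29 ± 0.13 (4.89-fold, adjusted p = 1.25e-12), against 5.59 with HGF alone. CREBRF, a regulator of cell energy use, fell by 2.32 ± 0.19, against 4.41 with HGF alone. Both KLHL24 and CREBRF were dim with HGF alone. Of 14 tested genes of lysosome and autophagy 6 fell under both inhibitors and 0 rose, against 12.8% and 12.2% of all genes. The 6 included WIPI1, which marks forming autophagosomes (-1.85 with PD-98059, -1.50 with U0126, -2.32 with HGF alone), and GABARAPL1, an autophagosome membrane protein (-0.72, -0.61 and -3.17).

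Genes of ERK output were lower under the inhibitors than with HGF alone without exception among those tested, but not all returned to control. On this list 10 genes were tested and HGF alone raised 9, against 30.4% of all genes. The inhibitor mean passed below HGF alone for all 10, against 22.9% of all genes. Against control, 3 fell under both inhibitors and 1 rose, where 12.8% and 12.2% of all genes did. The medians were 0.43 with PD-98059, -0.29 with U0126 and 1.07 with HGF alone. FOS, a subunit of the AP-1 transcription factor, had 12.89, 13.03 and 13.30 under PD-98059, 11.91, 11.91 and 12.23 under U0126, 13.90, 14.10, 14.06 and 13.78 with HGF alone and 13.52, 13.54, 13.64 and 13.57 in control. The 4 groups did not overlap, with U0126 lowest. FOS fell by 0.50 with PD-98059 and 1.55 with U0126, and the compounds differed (adjusted p = 3.39e-07), so the HGF effect of 0.39 was overshot.

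EGR1, an immediate early zinc finger factor, had 4.41, 4.20 and 4.41 under PD-98059, 4.39, 4.34 and 4.38 under U0126, 7.18, 5.23, 5.71 and 5.22 with HGF alone and 6.28, 6.12, 6.50 and 5.85 in control. The inhibitor arrays were all dim and below both other groups, which overlapped. EGR1 fell by 1.84 ± 0.25 (3.57-fold, adjusted p = 1.52e-06), with no call for HGF alone (-0.35, adjusted p = 0.266). Without HGF replicate 1, the highest of that group, the HGF effect was -0.80 and passed as a decrease. The member that rose was IER3, an immediate early gene linked to cell survival (0.62 with PD-98059, 0.47 with U0126, 1.03 with HGF alone), and its shared call was lost without control replicate 1, 3 or 4, without PD-98059 replicate 2, without U0126 replicate 1 or 3, without HGF replicate 2 or 3 and without the filter on low levels. Of 24 listed genes the other 14 were not tested.

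Decreases that overshot HGF included receptors, polarity and matrix genes. FLT1, a receptor of VEGF, had 9.19, 8.83 and 9.18 under PD-98059, 9.16, 8.97 and 9.02 under U0126, 11.58, 11.21, 11.62 and 11.26 with HGF alone and 10.47, 10.58, 10.43 and 10.40 in control. HGF alone lay above control and the inhibitors below, with no overlap. FLT1 fell by 1.41 ± 0.10 (2.66-fold, adjusted p = 2.16e-11), against a rise of 0.95 with HGF alone. PARD3, a scaffold of the apical polarity complex, had 10.57, 10.38 and 10.68 under PD-98059, 10.02, 9.97 and 10.08 under U0126, 11.94, 11.89, 11.84 and 11.80 with HGF alone and 11.56, 11.50, 11.44 and 11.23 in control. The groups were separate in the same order as for FLT1, and U0126 lay below PD-98059. PARD3 fell by 1.15 ± 0.07 (2.22-fold, adjusted p = 1.25e-12), more with U0126 than with PD-98059 (difference -0.52, adjusted p = 0.000139).

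LAMA3, a laminin chain of the epithelial basement membrane, had 11.82, 11.89 and 12.19 under PD-98059, 11.13, 11.30 and 11.67 under U0126, 15.21, 15.49, 15.43 and 15.07 with HGF alone and 12.42, 12.31, 12.35 and 12.30 in control. A large HGF effect of 2.96 was gone, and the inhibitor arrays lay below control. LAMA3 fell by 0.38 with PD-98059 and by 0.98 with U0126, and its shared call was lost without PD-98059 replicate 1 or 2. PMEPA1, an inhibitor of TGF-beta signalling that TGF-beta itself induces, fell by 0.85 and 1.16, against a rise of 0.80 with HGF alone. Fibronectin (FN1) fell by 0.63 with each compound, against a rise of 0.48 with HGF alone. None of its 3 other tested probe sets shared the call.

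Matrix proteases and their regulators went several ways. MMP13, a collagenase, had 11.06, 10.58 and 11.01 under PD-98059, 8.21, 8.16 and 8.63 under U0126, 12.93, 12.81, 13.22 and 13.39 with HGF alone and 12.41, 12.69, 12.39 and 12.57 in control. The groups did not overlap, and U0126 was by far the lowest. MMP13 fell by 1.63 with PD-98059 (adjusted p = 0.000930) and by 4.18 with U0126 (adjusted p = 5.91e-09), and the compounds differed by -2.55 (adjusted p = 0.000101). HGF alone changed it by 0.57 (adjusted p = 0.150), a difference that passed when the compared groups were fitted alone. PLAU, the urokinase plasminogen activator, had 6.67, 6.43 and 6.58 under PD-98059, 6.52, 6.63 and 6.62 under U0126, 7.52, 8.18, 8.59 and 8.90 with HGF alone and 7.80, 8.30, 7.84 and 8.35 in control. All inhibitor arrays lay below both other groups, which overlapped. PLAU fell by 1.50 ± 0.23 (2.82-fold, adjusted p = 7.86e-06) to nearly 1 level under both compounds (difference 0.03, 95% interval -0.56 to 0.62). The protease inhibitor SERPINE2 was the member of this list that rose under both, by 1.91 with PD-98059 and 1.04 with U0126, against 3.10 with HGF alone. Of 12 tested members 4 fell and 1 rose, against 12.8% and 12.2% of all genes.

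MMP1, the interstitial collagenase, was back at control. It had 3.47, 3.29 and 3.39 under PD-98059, 3.29, 3.31 and 3.30 under U0126, 9.54, 9.59, 10.81 and 11.17 with HGF alone and 3.33, 3.25, 3.41 and 3.15 in control. Only HGF alone was above the dim line. The inhibitor mean differed from control by 0.06 ± 0.41 (adjusted p = 0.932) and from HGF alone by -6.94. Over all probe sets, 4524 HGF calls (27.3%) had no call for the inhibitor mean, and 6903 (41.7%) had an inhibitor mean that passed against HGF alone in the other direction. The mean lay within 0.25 of control, and passed against HGF, at 1356 probe sets that HGF raised (8.18%) and 1706 that it lowered (10.3%).

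CDKN1A, the cell cycle inhibitor p21, had 9.52, 9.47 and 9.55 under PD-98059, 9.63, 9.41 and 9.93 under U0126, 11.93, 11.60, 11.65 and 11.34 with HGF alone and 9.74, 9.60, 9.51 and 9.77 in control. The inhibitor arrays overlapped with control and not with HGF alone, which raised it by 1.98. VLDLR, a lipoprotein receptor, had 9.35, 9.42 and 9.85 under PD-98059, 9.22, 9.45 and 9.60 under U0126, 5.61, 5.93, 6.15 and 5.90 with HGF alone and 9.78, 9.49, 9.78 and 9.58 in control. Here HGF alone was far below the other groups (-3.76), and the inhibitor mean differed from control by -0.18 (adjusted p = 0.230). The proteoglycan GPC3 (HGF effect 3.78), the desmosomal cadherin DSG3 (3.31) and N-cadherin, CDH2 (3.16, from a dim control level), were back among genes that HGF raised. The growth factor EGF (-4.65) and TTC30B, a ciliary transport protein (-4.13, to a dim level), were back among genes that it lowered.

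**Figure D3:**
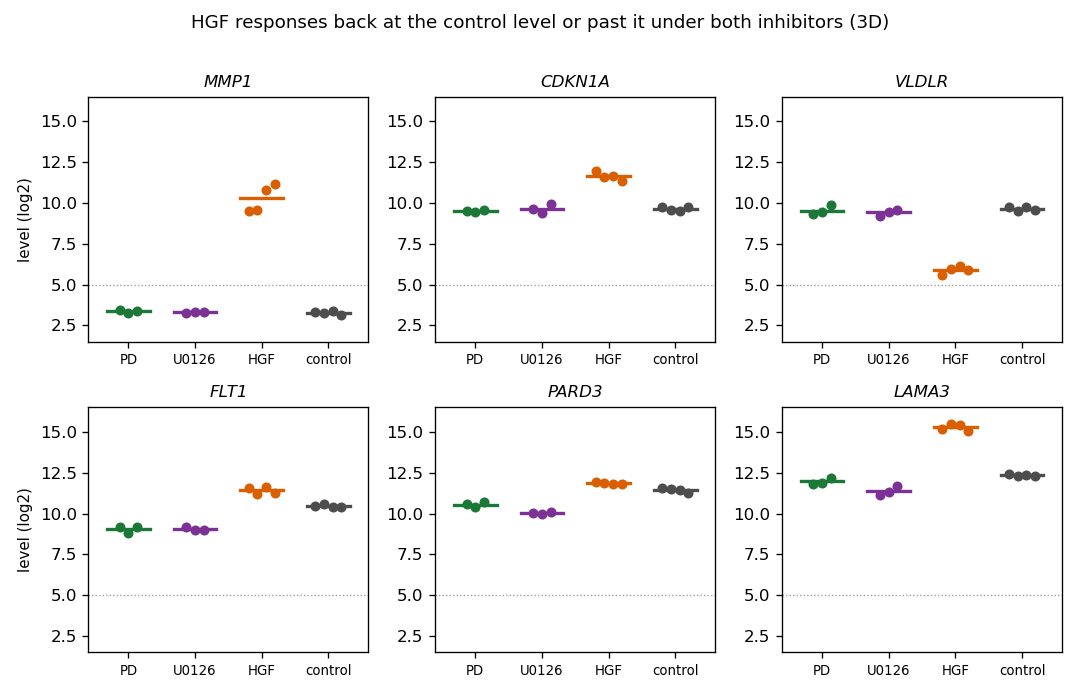
Levels of 6 genes whose HGF response was gone or overshot under both inhibitors, as log2 values per array. Each point is 1 array, columns are HGF with PD-98059, HGF with U0126, HGF alone and untreated control, horizontal bars are group means and the dotted line marks log2 5. The inhibitor arrays of MMP1, CDKN1A and VLDLR lie with control, and those of FLT1, PARD3 and LAMA3 lie below it while HGF alone lies above.

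Of 25 tested genes of the primary cilium, the sensory organelle on the apical face of kidney epithelium, HGF alone lowered 21. The inhibitor mean was above HGF alone for 20. Over all genes these shares were 33.3% and 30.3%. Against control 7 fell under both inhibitors and 1 rose, where 12.8% and 12.2% of all genes did. The list median was -0.20 for the inhibitor mean, against -1.15 for HGF alone. The shared decrease of IFT140 was lost without control replicate 1, 2 or 3 or any inhibitor array. The shared increase of IFT20, the member that rose, was lost without control replicate 2 or 4 or U0126 replicate 3. TMEM67, a protein of the ciliary transition zone, fell by 0.90 with PD-98059 and 0.61 with U0126, against 2.79 with HGF alone, and BBS2, a subunit of the BBSome coat, by 0.99 and 1.04, against 1.78. Of 12 kidney tubule genes 2 fell under both inhibitors, near the 12.8% over all genes, and 0 rose, while HGF alone lowered 8, against 33.3% of all genes. PDZK1, a scaffold of apical transporters, was at 10.35 under PD-98059 and 10.85 under U0126, against 4.69 with HGF alone and 10.07 in control (group means).

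Of 15 genes of tight and adherens junctions 5 fell under both inhibitors and 0 rose, against 12.8% and 12.2% of all genes. Among the 5, CLDN2 lost its shared call without control replicate 1, 2 or 4 or U0126 replicate 1 or 3. CGN lost it without control replicate 1, 3 or 4 or U0126 replicate 1 or 2. Both also lost it without the filter on low levels and with the replicate block. The scaffold TJP3 fell by 1.29 with PD-98059 and 1.09 with U0126, with -0.14 for HGF alone, and occludin (OCLN) by 0.44 and 0.36, against 1.15 with HGF alone. Against the same shares of all genes, 5 of 12 desmosome and hemidesmosome genes fell and 0 rose. The plaque proteins JUP (-0.70 with PD-98059, -0.91 with U0126) and PPL (-0.70 and -0.99) and the integrin ITGB4 (-0.59 and -0.78) were among them. Of 15 genes of integrins and basement membrane 6 fell and 0 rose, set beside those shares. Among the 6 were the perlecan gene HSPG2 at -0.78 and -1.05 and the collagen chain COL4A2 at -0.73 and -0.75. The shared call of JUP was lost without PD-98059 replicate 1.

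Among receptor tyrosine kinases and their ligands 4 of 11 fell under both inhibitors and 0 rose, against 12.8% and 12.2% of all genes. The EGF receptor (EGFR) fell by 0.55 with PD-98059 and 0.82 with U0126, with -0.22 for HGF alone (not called, and -0.31, which passed, without HGF replicate 1), and ERBB3 by 1.06 and 0.87, against 3.00 with HGF alone. MET itself changed by -0.08 with PD-98059 (adjusted p = 0.764) and by -0.46 with U0126 (adjusted p = 0.0470). The U0126 call was lost when any control or PD-98059 array, or U0126 replicate 1 or 3, was left out, and without U0126 replicate 1 the difference was -0.22. GAB1, the docking protein that links MET to PI3K and ERK, fell by 1.62 and 1.78, to dim levels, against 2.09 with HGF alone. AXIN2, a target of Wnt signalling that also restrains it, fell by 1.48 and 1.96, against 0.92 with HGF alone.

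**Figure D4:**
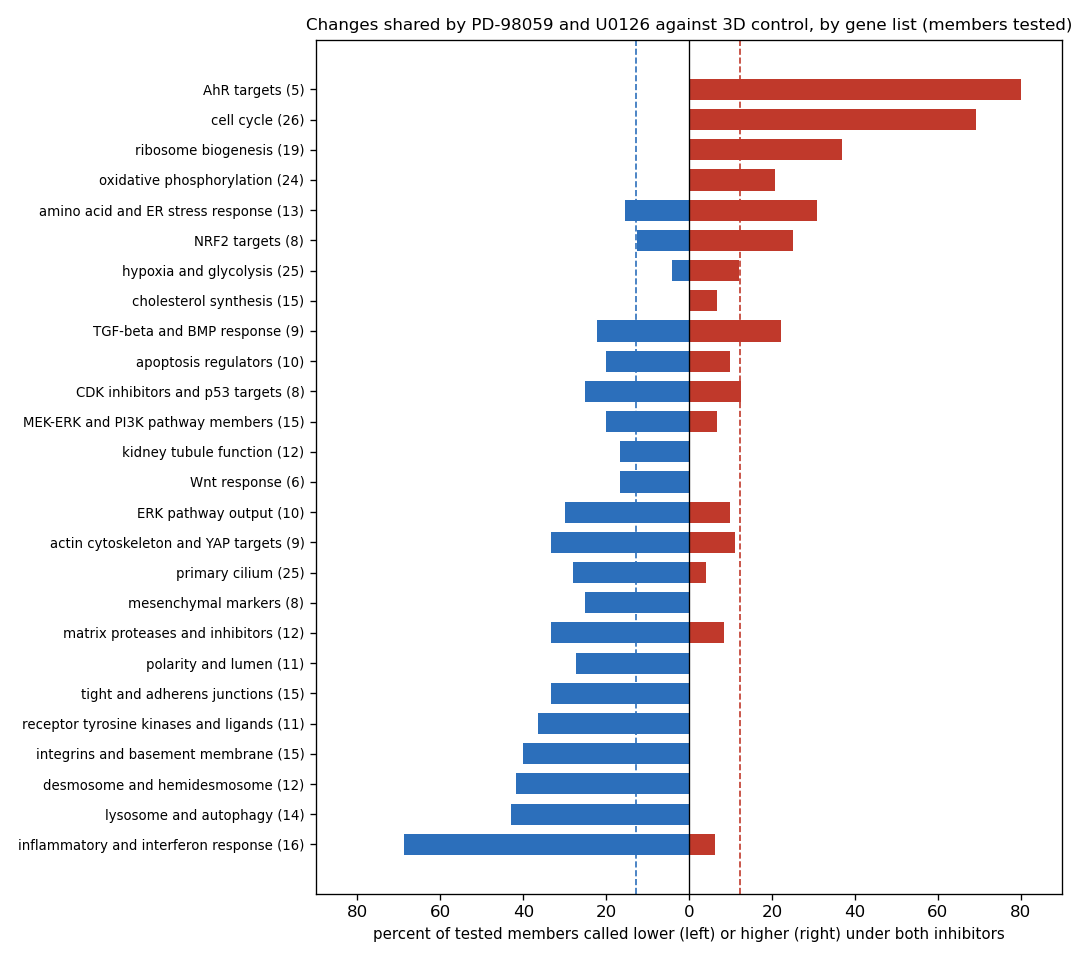
Share of the tested members of each gene list called higher (right, red) or lower (left, blue) than control under both inhibitors, in percent. Dashed lines mark the same share over all 6862 tested genes, 12.2% higher and 12.8% lower. The AhR list (4 of 5) and the cell cycle list (18 of 26) reach farthest right and the inflammatory list (11 of 16 lower) farthest left. The lists were chosen with earlier results of these data known, so the shares are descriptive.

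The compounds were compared as 1 pair, with p-values adjusted over all tested probe sets. U0126 was above PD-98059 at 495 probe sets (2.99%) and below it at 1462 (8.82%), and at 741 and 1112 after a further quantile normalization. Without PD-98059 replicate 2 these counts were 274 and 971, without PD-98059 replicate 3 they were 301 and 609, without U0126 replicate 1 they were 286 and 780, and without U0126 replicate 2 the lower count was 730. TIMP1, an inhibitor of matrix metalloproteinases, had 6.97, 7.36 and 7.33 under PD-98059, 4.80, 4.97 and 3.68 under U0126, 13.30, 13.85, 13.90 and 13.61 with HGF alone and 5.59 ± 0.55 (SD, n = 4) in control. PD-98059 lay above control and U0126 below it at a dim level, both far under HGF alone. TIMP1 rose by 1.63 with PD-98059, fell by 1.11 with U0126 (-0.70 and no longer called without U0126 replicate 3), and differed between them by -2.74 (95% interval -3.40 to -2.07, adjusted p = 2.08e-06).

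SNAI2, a repressor of epithelial genes, had 10.94, 11.10 and 11.37 under PD-98059, 9.25, 9.27 and 9.55 under U0126, 12.60, 13.09, 13.13 and 12.76 with HGF alone and 10.32, 10.07, 10.41 and 10.02 in control. PD-98059 lay between control and HGF alone, and U0126 below control. SNAI2 rose by 0.94 with PD-98059 and fell by 0.85 with U0126 (difference -1.78, adjusted p = 6.69e-09). The ERK phosphatase DUSP6 had 13.33, 13.36 and 13.43 under PD-98059, 12.48, 12.64 and 12.77 under U0126, 13.80, 13.69, 13.90 and 13.46 with HGF alone and 13.00, 12.93, 12.92 and 12.72 in control. PD-98059 lay between control and HGF alone, and U0126 overlapped with control. DUSP6 rose by 0.48 with PD-98059 and fell by 0.26 with U0126 (difference -0.74, adjusted p = 3.62e-05), where HGF alone raised it by 0.82. The fall with U0126 (adjusted p = 0.0433) was lost without control replicate 1, 2 or 3 or U0126 replicate 1 or 2, and after a further quantile normalization. DUSP5, another phosphatase of ERK, differed between the compounds by -1.07 (adjusted p = 0.00281), and 6 of the 10 ERK output genes were lower with U0126 and 0 higher, against 9.97% and 3.10% of all genes.

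The chemokine CXCL8 had 7.82, 8.47 and 8.97 under PD-98059, 10.75, 10.68 and 11.13 under U0126, 3.40, 3.07, 3.09 and 3.05 with HGF alone and 10.69, 11.38, 11.15 and 10.91 in control. U0126 overlapped with control, and PD-98059 lay between control and HGF alone. CXCL8 fell by 2.61 with PD-98059, changed by -0.18 with U0126 (adjusted p = 0.476) and differed between them by 2.43 (adjusted p = 5.64e-09). CLTRN, which helps bring amino acid transporters to the tubule surface, had 4.03, 3.97 and 4.21 under PD-98059, 7.23, 7.94 and 6.68 under U0126, 4.06, 3.45, 3.52 and 3.47 with HGF alone and 6.56, 5.94, 6.40 and 4.32 in control. It fell by 1.74 to a dim level with PD-98059 and rose by 1.48 with U0126 (difference 3.21, adjusted p = 9.65e-07), with control replicate 4 apart from the other control arrays. Without that array the rise with U0126 was 0.98.

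**Figure D5:**
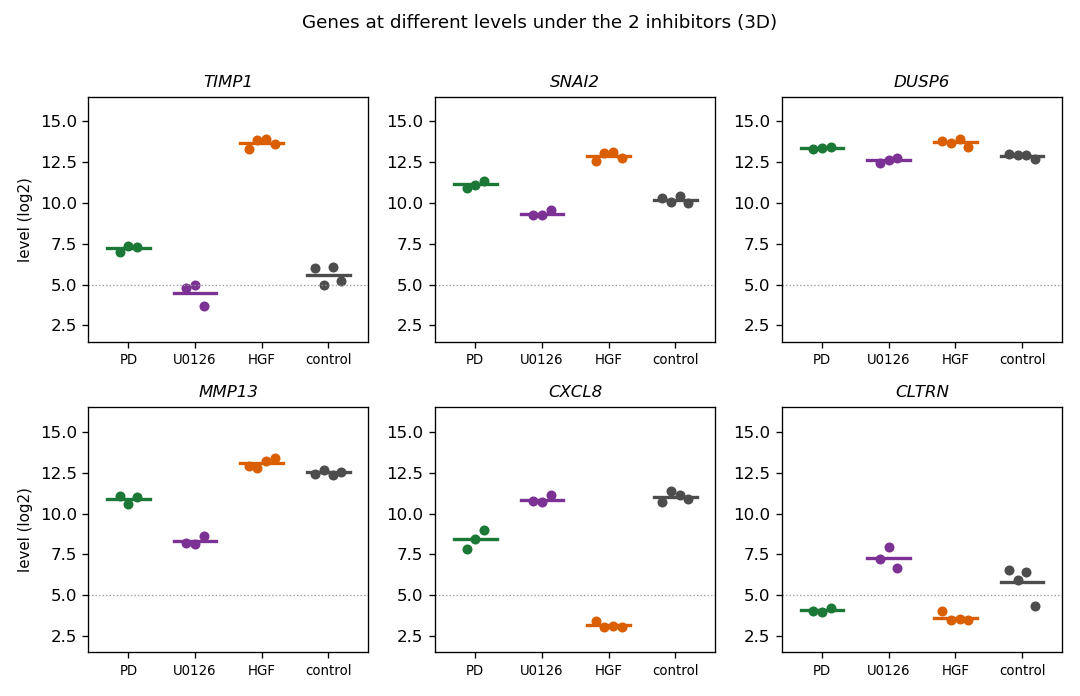
Levels of 6 genes that differed between the inhibitors, as log2 values per array. Each point is 1 array, columns are HGF with PD-98059, HGF with U0126, HGF alone and untreated control, horizontal bars are group means and the dotted line marks log2 5. PD-98059 lies above U0126 for TIMP1, SNAI2, DUSP6 and MMP13 and below it for CXCL8 and CLTRN.

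Of 15 tested enzymes of cholesterol synthesis 11 were lower with U0126 than with PD-98059 and 0 higher, against 9.97% and 3.10% of all genes. The list medians against control were 0.63 with PD-98059 and -0.03 with U0126. HGF alone raised 10, against 30.4% of all genes. The squalene synthase gene FDFT1 changed by 0.74 with PD-98059, -0.01 with U0126 and 0.97 with HGF alone, and CYP51A1, a sterol demethylase, was the only member that rose under both, by 0.85 and 0.26. Of the 19 ribosome biogenesis genes 14 were lower with U0126 than with PD-98059, against 9.97% of all genes. DKK3, a secreted relative of Wnt inhibitors singled out here after its values were seen, had 8.34, 8.23 and 8.43 under PD-98059, 4.42, 4.32 and 4.79 under U0126, 4.49, 4.05, 3.91 and 3.58 with HGF alone and 4.01, 3.67, 4.30 and 3.87 in control. Only the PD-98059 arrays were bright, and every other group was dim (U0126 against PD-98059 adjusted p = 6.19e-10).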

How the data were processed

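The series matrix holds log2 levels per probe set as the authors deposited them. The tools named in the submitters' processing notes are GCRMA, MAS5, Partek 6.6 and Affymetrix Expression Console 1.1, with no role or order given. Per the labels the RNA came from Qiagen RNeasy columns and was transcribed in vitro from cDNA with a biotin label. No further normalization was applied. Of 43035 probe sets, 111 are controls, and the 16571 at log2 5 or more in at least 3 of 29 arrays were tested. Array data have no read depth. Genes were named from the platform annotation, where 29254 probe sets have 1 symbol, 439 several and 13231 none, and 27680 of the symbols were matched by gene ID. Each gene of the lists and each named gene is represented by its brightest tested probe set on average. Of 3633 genes with several tested probe sets, 35 had opposite calls for the inhibitor mean, and none of the other probe sets of the 154 named genes did. Of 66 named genes with a shared call and another tested probe set, 39 had at least 1 other that shared the call. Among those without one were FN1 (3 others) and FOS, PMEPA1, AXIN2, JUP, PPL, ITGB4, TMEM67, GABARAPL1 and BPI (1 other each).

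limma 3.58.1 in R 4.3.3 was fitted to the means of 8 groups over 29 arrays, with eBayes and a variance trend. Tests are two-sided, with Benjamini-Hochberg adjustment over 16571 probe sets and a threshold of 0.05. The model was tested on simulated data. The RNA-quality index was compared with an exact two-sided permutation test, where the smallest possible p is 0.00476.

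Named genes have 1 symbol. They are the 12 largest shared changes per direction, the 6 largest left, overshot or beyond HGF, the 5 largest back at control or opposite between the inhibitors (overlap allowed), up to 4 shared members per direction of each of 26 lists, and a set that was always given. All but the list members and the set always given needed a group mean of log2 6 or more. They also needed no overlap between inhibitor and control arrays, except where overlap was allowed. VCAM1, a list member, stayed below log2 6 in every 3D array, and CLDN2 overlapped with control. The list members AHR, CCNE1, AURKA, PLK1, PCNA, ISG15, OCLN, GCLC, GCLM, FDFT1 and DKK3 fall outside this selection and were chosen after their values were seen. Some named genes are not printed. Members and lists were chosen with earlier results of these data known. Alternatives were other filters, normalizations, weights and models, a replicate block and each array left out. The RNA-quality covariate and leaving out HGF replicates 1 and 4 were added after the data were seen. Whether the replicate numbers pair arrays was checked from deviations from group means. Of 19 same-number pairs, 9 correlated above 0.1. Arrays of different numbers were not compared in this way, so the check cannot decide whether the numbers are pairs. The main fit did not treat them as pairs.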

Additional observations from a re-analysis of the deposited data

Results flagged for a closer look

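In groups of 4 arrays, a single array stood apart by Dixon's criterion in 12 of 210 groups examined (105 genes, HGF alone and control), and chance gives about 1 in 20. Replicate 1 of HGF alone was that array for 8 genes. It was at 8.83 for AXIN2 (lowest of the others 7.89, and all 3 below replicate 1), 4.06 for CLTRN (3.45 to 3.52), 3.40 for CXCL8 (3.05 to 3.09), 6.30 for DCK (7.84 to 7.96), 9.21 for DUSP5 (10.07 to 10.23), 9.70 for GINS4 (9.08 to 9.14), 7.84 for ISG15 (8.44 to 8.46) and 3.46 for VCAM1 (3.16 to 3.19). Replicate 4 of HGF alone was at 9.12 for COL4A2 (9.39 to 9.43) and 6.90 for WIPI1 (7.37 to 7.46). Control replicate 2 was at 12.67 for NQO1 (12.81 in each of the others), and control replicate 4 at 10.45 for FDFT1 (10.51 to 10.52). The PD-98059 and U0126 groups of 3 arrays were too small for this criterion.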

How the results depend on the processing

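Over the 154 named genes and the alternatives other than the 2-fold criterion, each comparison gave 3694 calls, and none changed from one direction to the other. Calls lost and gained numbered 29 and 15 for the inhibitor mean, 84 and 0 for PD-98059, 90 and 15 for U0126, 54 and 93 for U0126 over PD-98059, 22 and 32 for HGF alone, and 48 and 46 for the inhibitor mean over HGF. Without the low-level filter HGF alone raised 8717 probe sets, the overshot ones numbered 64 higher and 54 lower, and U0126 was below PD-98059 at 971. With array weights U0126 raised 3794 over control, and it was above PD-98059 at 1671 and below at 3776. Asking for a 2-fold change left 489 higher and 507 lower for the inhibitor mean, 674 and 690 for PD-98059, 472 and 453 for U0126, 129 and 92 for U0126 over PD-98059, 1639 and 2340 for HGF, 1520 and 720 for the inhibitor mean over HGF, 277 and 320 shared, 204 and 269 left and 13 and 2 overshot, since fewer probe sets meet the added criterion. With each array left out in turn the ranges were 3012 to 3770 higher and 3016 to 3783 lower for the inhibitor mean, 2888 to 3907 and 2317 to 3147 for PD-98059, 1662 to 2681 and 2449 to 3554 for U0126, 1470 to 2112 and 1739 to 2332 shared, 1197 to 1722 and 1518 to 1970 left, 65 to 114 and 54 to 93 overshot, and 274 to 648 and 609 to 1811 for U0126 over PD-98059. The cause of these shifts was not tested beyond the smaller groups. The inhibitor mean over HGF split as 4728 higher and 3708 lower, against 3967 and 5135 after median centring and 4506 and 4740 after quantile normalization, and U0126 over PD-98059 as 624 and 1279 after median centring. With the replicate number as a block the shared changes numbered 1864 higher and 1987 lower, IER3 lost its shared call, MET lost its call with U0126, and CYP1B1 gained one as lower with HGF alone. Whether the numbers pair arrays was not settled, with same-number correlations of deviations from -0.22 to 0.41 and no different-number pairs to set beside them. With a few arrays per group small differences could be missed, dim levels cannot show a further fall, and folds from them rest on background.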

Other observations

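In the list of actin cytoskeleton and YAP targets 3 of 9 tested genes fell under both inhibitors and 1 rose, against 12.8% and 12.2% of all genes. ANKRD1, a nuclear target of YAP, fell by 3.65 with PD-98059 and 1.30 with U0126, against 3.62 with HGF alone, to dim levels in each, and the compounds differed (adjusted p = 8.07e-07). CCN2, a matricellular growth factor and YAP target, fell by 1.99 with PD-98059 and 1.37 with U0126, against 1.38 with HGF alone. Among 8 mesenchymal markers 2 fell and 0 rose, against the same shares of all genes. TAGLN, an actin-binding protein of smooth muscle, fell by 1.42 with PD-98059 and 1.47 with U0126, against 3.27 with HGF alone. Of 11 polarity genes 3 fell and 0 rose, against 12.8% and 12.2% of all genes. With so few members, the mesenchymal and polarity counts are not read as results about the lists.

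Among 13 genes of amino acid and ER stress 4 rose and 2 fell, against 12.2% and 12.8% of all genes. The serine hydroxymethyltransferase SHMT2 rose by 1.12 with PD-98059 and 0.38 with U0126, a shared call that was lost without U0126 replicate 3, and HERPUD1, which serves the degradation of misfolded ER proteins, fell by 1.10 with PD-98059 and 1.24 with U0126, against 0.93 with HGF alone. Among 25 genes of hypoxia and glycolysis 3 rose, near the 12.2% of all genes, and 1 fell, below the 12.8% of all genes. The one that fell was the pyruvate dehydrogenase kinase PDK1, by 0.72 with PD-98059 and 0.58 with U0126. ANGPTL4, an inhibitor of lipoprotein lipase, rose by 1.71 with PD-98059 and 0.71 with U0126 from a dim control level, against 0.07 with HGF alone, and was higher with PD-98059 (adjusted p = 0.00117). Of 10 apoptosis regulators 1 rose and 2 fell, of 8 CDK inhibitors and p53 targets 1 rose and 2 fell, and of 9 genes of TGF-beta and BMP response 2 rose and 2 fell. Of 15 members of the MEK-ERK and PI3K pathways 1 rose and 3 fell, and of 6 genes of Wnt response 0 rose and 1 fell. With so few members, these counts lie near the shares over all genes and are not read as results about the lists.

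Further genes passed in opposite directions under the compounds. CPT1A, which brings fatty acids into mitochondria for oxidation, rose by 0.57 with PD-98059 and fell by 0.69 with U0126, with 0.03 for HGF alone. The ciliary microtubule protein DCDC2 fell by 1.25 with PD-98059 and rose by 1.07 with U0126, against -1.87, to a dim level, with HGF alone. The fall was not called without PD-98059 replicate 3 (-0.93) nor the rise without U0126 replicate 1. EFEMP1, an extracellular matrix glycoprotein, changed by -0.39 with PD-98059 (adjusted p = 0.0342) and rose by 1.08 with U0126, against -3.63, to a dim level, with HGF alone. Its PD-98059 arrays overlapped with control, and that call was lost without control replicate 1, 2 or 3 or PD-98059 replicate 2 or 3 (-0.20 without the last).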
